A study of Homo sapiens with 17 samples.

Results

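The axon guidance genes described here are the ligands and receptors of the semaphorin, slit, netrin and ephrin systems. They were taken as every row of the count table whose symbol names a semaphorin of classes 3 to 7, a plexin, a neuropilin, a slit, a ROBO, a netrin or netrin-G, an UNC5 receptor, an ephrin or an Eph receptor. That rule, which uses symbols only, gave 70 of 34496 gene rows, of which 37 are ligands and 33 receptors in 11 families. RNA had been sequenced from human cell lines of head and neck cancer, in 10 libraries. The groups of 2 libraries each were the NSD1 knockout of Cal27 treated with EPZ-6438, the same knockout treated with DMSO, and parental Cal27 treated with DMSO. Cal27 is a line of tongue squamous cell carcinoma, NSD1 is an enzyme that methylates lysine 36 of histone H3, and EPZ-6438 (tazemetostat) inhibits EZH2, which methylates lysine 27 of the same histone. A further set of untreated cells held 1 library each of the Cal27 NSD1 knockout, the line SKN3, the line BICR78 and Cal27. The dose and duration of treatment, the way the knockout was made and whether it is 1 clone are not given in the labels. No library of parental Cal27 with EPZ-6438 is among the samples, so an effect of the inhibitor cannot be compared between knockout and parental cells.

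Axon guidance cues are secreted or membrane-bound proteins that steer growing nerve fibres. Semaphorins signal through plexins, and most secreted class 3 semaphorins also need a neuropilin. Slits bind ROBO receptors, netrins bind DCC, neogenin and UNC5 receptors, and ephrins on a cell bind Eph receptor tyrosine kinases on its neighbour. Outside the nervous system the same proteins act in vessel growth, in epithelial sheets and boundaries between cells, and in the movement of tumour cells. In stratified epithelium, EPHA2 and its ligand EFNA1 are among the members long known to be expressed.

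Total counts were 11.75 to 15.51 in units of 1e6 in the 6 treated libraries and 17.59 to 21.74 in the 4 untreated ones, and the 70 genes together took between 0.164% and 0.288% of them. All levels below are counts per 1e6 after TMM scaling (CPM), and levels of different genes are not compared because counts are not divided by transcript length. NSD1 itself stood at 161 and 150 CPM in the knockout with EPZ-6438, 165 and 163 CPM in the knockout with DMSO, and 113 and 114 CPM in Cal27 with DMSO (log2 change of knockout over Cal27 with DMSO 0.53 ± 0.04, SE; adjusted p = 4.2e-08). A count cannot tell an edited transcript from an intact one, so the label is not checked by it, and "labelled knockout" is used throughout. NSD1 was at 205 CPM in the untreated labelled knockout, 80.2 CPM in SKN3, 0.464 CPM in BICR78 and 150 CPM in untreated Cal27. The squamous epithelial markers fixed for these cells were present in every library, with a summed level of 9 genes between 2473 and 24281 CPM. All 9 were lower in the labelled knockout with DMSO than in Cal27 with DMSO. Of 10 neuron markers, 6 stayed under 1 CPM in all libraries, while TUBB3, MAP2, SYT1 and SYN1 passed that level in at least 1. Of the markers of other cell types, 3 of 7 glial, 6 of 9 endothelial, 3 of 9 fibroblast and 6 of 9 immune genes stayed under 1 CPM in every library, and the immune markers CD2 and MS4A1 were at 0 in all of them. Their summed levels reached at most 156, 87.5, 58.8 and 33.1 CPM. The endothelial maximum was in the untreated labelled knockout, against 5.89 CPM in untreated Cal27. The neuron markers summed to 284 CPM in BICR78, their highest, and to 178 CPM in SKN3 and 58.2 CPM in untreated Cal27. The part of all these markers in the results below was not tested.

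The genes differed widely in how much RNA was counted. Of the 70, 14 stayed under 1 CPM in every library, 1 of them (UNC5D, a netrin receptor) with no count at all, and 19 reached at least 10 CPM in every library. In the 6 treated libraries 50 passed the low-count filter and were tested. The 20 not tested were EFNA2, EPHA4, EPHA5, EPHA6, EPHA7, EPHA8, EPHB1, NTN3, NTN5, PLXNA4, ROBO2, ROBO4, SEMA3G, SEMA4G, SEMA5A, SEMA6D, SLIT1, SLIT3, UNC5C and UNC5D. Of these, 3 reached at least 50 counts in an untreated library, and in each case the highest was SKN3: EPHA4 at 26.9 CPM, SEMA4G at 2.92 CPM and SEMA6D at 2.81 CPM. In the annotation SEMA4G overlaps MRPL43, so reads from the overlap cannot be assigned.

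**Figure D1:**
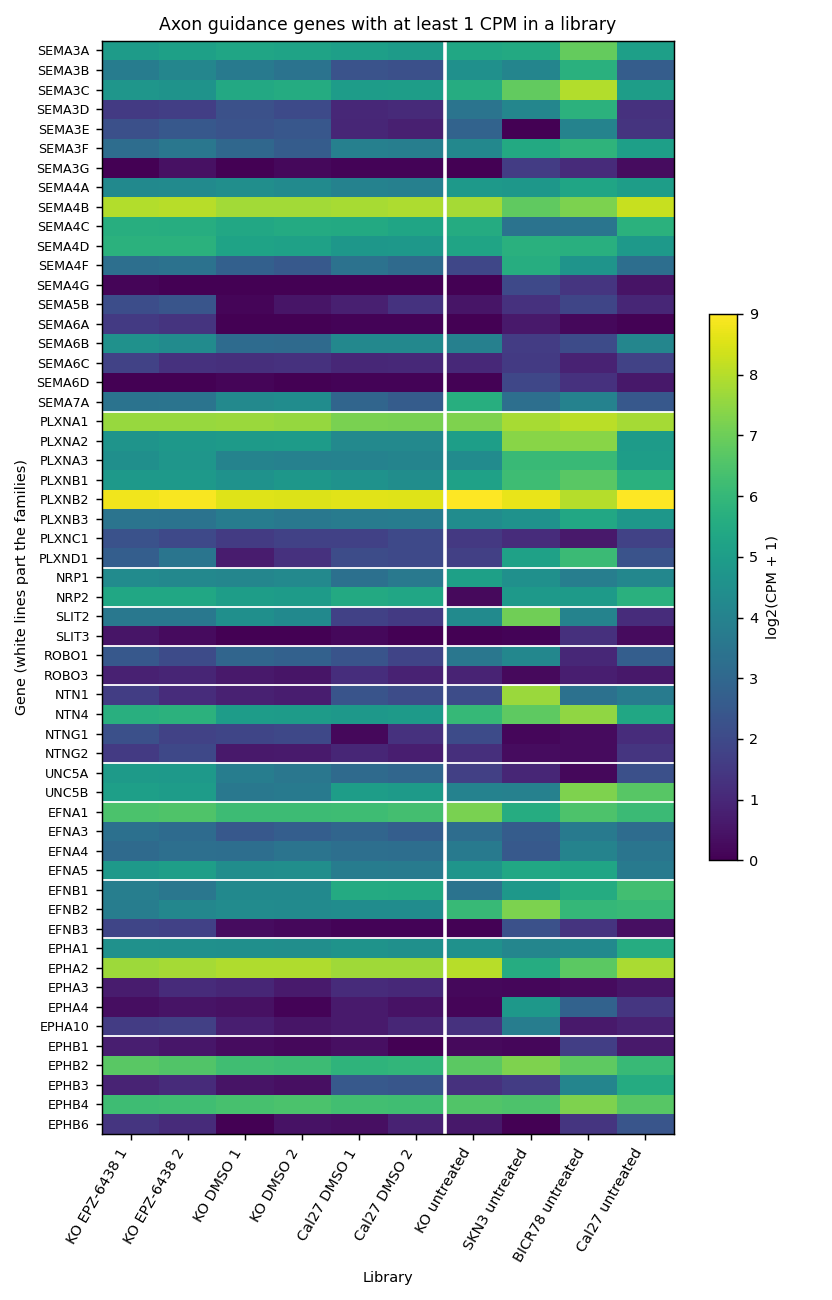
Heatmap of log2(CPM + 1) for the 56 axon guidance genes that reached 1 CPM in a library (rows, by family) across the 10 libraries (columns; KO is the labelled knockout, and the white vertical line parts treated from untreated libraries). PLXNB2 and SEMA4B are bright throughout, while SLIT2, NTN1 and NRP2 change colour between libraries.

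In the labelled knockout with DMSO against Cal27 with DMSO, 19 of the 50 tested genes rose and 11 fell (edgeR, adjusted p below 0.05). Over all 13241 tested genes 16.4% rose and 19.5% fell, that is 2169 and 2580 genes, against 2978 and 2088 when scaled by library size alone, where 19 and 10 axon guidance genes were called. With the untreated pair of libraries described further on added to the fit, 7 fell in place of 11. The axon guidance genes called at 2-fold or more numbered 14, of which 6 rose and 8 fell, and 6.52% of all genes were called at that size, of which 181 rose and 682 fell. Their median log2 change was 0.01, against -0.01 over all genes, while the median absolute log2 change was 0.54, against 0.17. All 6 genes that rose by 2-fold or more were ligands (SLIT2, SEMA3E, NTNG1, SEMA7A, SEMA3D and SEMA3B), where 28 of the 50 tested genes were ligands. Those that fell by as much were the ligands NTN1, SEMA5B, EFNB1, SEMA3F and SEMA6B and the receptors EPHB3, PLXND1 and UNC5B.

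With EPZ-6438 in the labelled knockout, against DMSO in the labelled knockout, 26 of the 50 rose and 10 fell. Over all genes 25.6% rose and 23.9% fell. Without replicate 1 or replicate 2 of the knockout with DMSO, and in DESeq2, 6 fell in place of 10. All 12 axon guidance genes called at 2-fold or more, 6 ligands and 6 receptors, had risen. Of all genes 9.96% were called at that size, of which 1199 rose and 120 fell. The median log2 change of the 50 was 0.38, against 0.00 over all genes. The labelled knockout with EPZ-6438 was also set against Cal27 with DMSO, where 29 rose and 7 fell (26.1% and 25.9% of all genes; 4 fell without Cal27 replicate 1, without EPZ-6438 replicate 1 or in DESeq2). At 2-fold or more 12 rose and 3 fell, and 8.65% of all genes were called at that size, of which 846 rose and 300 fell. Markers of cell types moved with the groups. The 9 squamous markers summed to 2473 and 2508 CPM with EPZ-6438, 3807 and 3902 CPM in the knockout with DMSO, and 8192 and 8093 CPM in Cal27. All 9 fell in the labelled knockout, and with EPZ-6438 6 fell while KRT6A and PERP rose (0.18 and 0.48). The 9 immune markers summed to 32.5 and 33.1 CPM with EPZ-6438, 9.09 and 11.4 CPM in the knockout with DMSO, and 9.15 and 8.77 CPM in Cal27, and the 9 fibroblast markers to 21.3 and 25.4, 10 and 7.46, and 20.6 and 19 CPM in the same groups. CD14 carried the immune sum, with 31.9 ± 0.57 CPM with EPZ-6438, 9.32 ± 0.65 CPM in the knockout with DMSO and 7.67 ± 0.12 CPM in Cal27 (SD, n = 2 each). PTPRC and NKG7, markers of leukocytes and cytotoxic cells, stayed under 1 CPM, whereas ITGAM and CD3E reached 3.94 and 1.57 CPM in their highest library of all 10. The 9 endothelial markers summed to 26.7 and 29.3, 23.2 and 20.9, and 18.2 and 17.9 CPM in the groups as ordered above. Of the 3 tested, CDH5 rose (0.49) while PECAM1 and VWF fell (-1.68 and -2.59) in the labelled knockout. With EPZ-6438 PECAM1 rose (3.39) and 2 were not called. Of 10 neuron markers 3 were tested, and with EPZ-6438 SYT1 and MAP2 rose (1.01 and 1.13) and TUBB3 fell (-0.45). The part of all these markers in these counts was not tested. The comparisons share libraries: the knockout with DMSO is the upper group in the first and the lower group in the second, so a gene that is high there by chance leans opposite ways in them. Values are therefore given side by side below. No label says whether replicates were separate cultures, so each p-value refers to the spread between libraries alone, part or all of which may be technical.

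**Figure D2:**
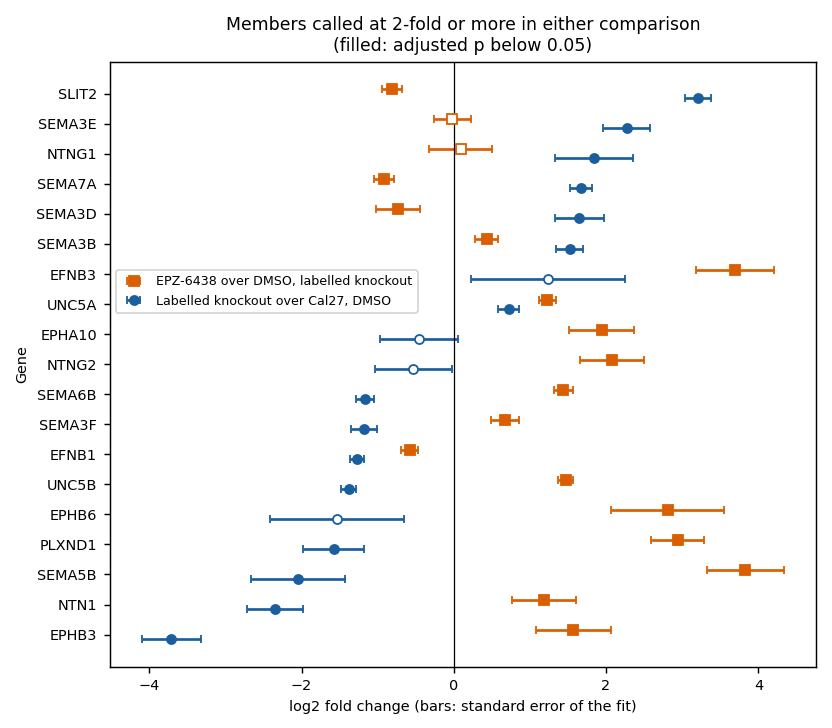
Log2 fold change (points, bars ± SE of the fit; filled where adjusted p is below 0.05) of 19 axon guidance genes called at 2-fold or more in the labelled knockout over Cal27 with DMSO (circles) or with EPZ-6438 over DMSO in the labelled knockout (squares). SLIT2 lies at 3.21 and EPHB3 at -3.71 in the knockout comparison, and EFNB1 is lower in both. SEMA6A, at 0 counts in the knockout with DMSO, is left out.

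Among the class 3 semaphorins, secreted ligands of neuropilin and plexin complexes, 5 of the 6 tested rose in the labelled knockout and SEMA3F fell, where 16.4% of all genes rose and 19.5% fell. With EPZ-6438 2 rose and 3 fell, where 25.6% and 23.9% of all genes did. SEMA3E, a ligand of PLXND1 known for repelling vessels (chr7:83363238-83649139, GRCh38.p14), had 3.55 and 4.54 CPM in the knockout with EPZ-6438, 3.88 and 4.42 CPM in the knockout with DMSO, and 0.952 and 0.744 CPM in Cal27 with DMSO. Its log2 change was 2.27 ± 0.31 in the labelled knockout (SE, adjusted p = 2.2e-05) and -0.02 ± 0.24 with EPZ-6438, so both knockout groups stood above Cal27 and overlapped each other. SEMA3B, described as a tumour suppressor in lung cancer, had 12.7 and 16.4 CPM with EPZ-6438, 12 and 9.85 CPM with DMSO in the labelled knockout, and 3.95 and 3.64 CPM in Cal27. It rose by 1.52 ± 0.18 in the labelled knockout (adjusted p = 5e-06) and by 0.43 ± 0.15 with EPZ-6438. The smaller change was lost without replicate 2 of the EPZ-6438 group (0.22) or of the knockout with DMSO (0.29) and in DESeq2 (0.42).

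SEMA3D, SEMA3C and SEMA3A each rose in the labelled knockout and fell with EPZ-6438. SEMA3D had 1.86 and 2.17 CPM with EPZ-6438, 3.73 and 3.04 CPM in the knockout with DMSO, and 1.02 and 1.12 CPM in Cal27, a rise of 1.65 ± 0.32 and then a log2 change of -0.73 ± 0.29. The second of these (adjusted p = 0.044) passed the threshold with all 6 libraries but not with any 1 of them left out. Its values then ran between -0.87 without replicate 2 and -0.58 without replicate 1 of the knockout with DMSO. It was also lost in DESeq2 (-0.74). SEMA3C, which guides neural crest cells in the heart, had 25.5 and 23.5 CPM with EPZ-6438, 42.1 and 45.6 CPM in the knockout with DMSO, and 30.7 and 31.6 CPM in Cal27. It rose by 0.49 ± 0.07 in the labelled knockout and fell by 0.84 with EPZ-6438 (SE 0.08, adjusted p = 1.1e-07), to below Cal27. SEMA3A, the collapsing factor of sensory growth cones, changed by 0.23 ± 0.08 and -0.22 ± 0.08. SEMA3F, a ligand that acts through NRP2, went the other way from these: it had 8.20 and 10.9 CPM with EPZ-6438, 7.07 and 5.14 CPM in the knockout with DMSO, and 14.0 and 13.5 CPM in Cal27. It fell by 1.18 in the labelled knockout (SE 0.17, adjusted p = 3.5e-05) and rose by 0.67 ± 0.18 with EPZ-6438, a call lost without replicate 2 of the EPZ-6438 group (0.43) or of the knockout with DMSO (0.46).

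SEMA7A, the semaphorin anchored to the membrane by a lipid and bound by plexin C1 and integrins (chr15:74409289-74433958), had 9.81 and 9.97 CPM with EPZ-6438, 17.9 and 19.7 CPM in the knockout with DMSO, and 6.59 and 5.21 CPM in Cal27. It rose by 1.67 ± 0.14 in the labelled knockout (adjusted p = 5.7e-08) and fell by 0.92 with EPZ-6438 (SE 0.13, adjusted p = 1.3e-05), and the 3 groups did not overlap. SEMA6B, a transmembrane ligand of plexin A receptors, moved in the opposite sense, with 22.7 and 19.5 CPM with EPZ-6438, 7.77 and 7.68 CPM in the knockout with DMSO, and 17.3 CPM in each Cal27 library. Its log2 changes were -1.17 ± 0.12 (adjusted p = 1.1e-06) and 1.44 ± 0.12 (adjusted p = 3.1e-08). SEMA5B rested on few reads: 3.38 and 4.22 CPM with EPZ-6438, 0.0777 and 0.435 CPM in the knockout with DMSO, and 0.732 and 1.49 CPM in Cal27. It rose by 3.83 ± 0.51 with EPZ-6438, while its fall in the labelled knockout (-2.05 ± 0.62) was lost without replicate 1 of the knockout with DMSO (-1.33) or replicate 2 of Cal27 (-1.46).

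SEMA6A, a transmembrane ligand of PLXNA2 and PLXNA4, had 1.86 and 1.53 CPM with EPZ-6438, no count in either library of the knockout with DMSO, and 0.0732 and 0.0744 CPM in Cal27. The EPZ-6438 level was at least 14.9-fold higher than that of the knockout with DMSO, taking 3 counts over that group as its floor. Against the 2 counts of Cal27 the ratio was 22.7, with a 95% interval on counts of 5.93 to 193. Of the class 4 semaphorins, SEMA4B was the semaphorin with the highest mean count, with 246 and 263 CPM with EPZ-6438, 215 and 217 CPM in the knockout with DMSO, and 227 and 234 CPM in Cal27. SEMA4D, which acts on plexin B1 and in immune cells, rose in steps of 0.42 ± 0.07 in the labelled knockout and 0.58 ± 0.06 with EPZ-6438. In the annotation SEMA4D overlaps SECISBP2, so reads from the overlap cannot be assigned. SEMA4F changed by -0.69 ± 0.17 and 0.80 ± 0.17, and SEMA4A rose by 0.44 ± 0.10 in the labelled knockout. The change of SEMA4B in the labelled knockout, -0.10 ± 0.04, was lost under library-size scaling (-0.05) and in DESeq2 (-0.09). It was also lost without any 1 of the 4 libraries compared (-0.12 without Cal27 replicate 1, -0.08 without Cal27 replicate 2, -0.09 and -0.11 without knockout replicates 1 and 2).

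Plexins and neuropilins are the receptors of these ligands. Of 8 plexins tested, 2 rose and 1 fell in the labelled knockout, against 16.4% and 19.5% of all genes. With EPZ-6438 3 rose (PLXND1, PLXNA3 and PLXNB2) and 5 were not called, against 25.6% of all genes that rose. PLXND1, the receptor of SEMA3E (chr3:129555214-129606676), had 5.50 and 10.3 CPM with EPZ-6438, 0.622 and 1.45 CPM in the knockout with DMSO, and 3.29 and 2.97 CPM in Cal27. It rose by 2.94 ± 0.35 with EPZ-6438 (adjusted p = 3e-06) and fell by 1.58 in the labelled knockout (SE 0.40), a call lost without replicate 1 of the knockout with DMSO (-1.11). Its ligand SEMA3E was high in both knockout groups, while PLXND1 was below Cal27 in the knockout with DMSO and above it with EPZ-6438. With EPZ-6438, PLXND1 and SEMA3E stood above Cal27 by log2 1.36 ± 0.29 and 2.25 ± 0.31. That PLXND1 call against Cal27 was lost without replicate 2 of the EPZ-6438 group (0.81).

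PLXNA1 rose by 0.43 ± 0.04 and PLXNA2 by 0.73 ± 0.09 in the labelled knockout, and neither passed the test with EPZ-6438. PLXNB2, the plexin with the highest mean count, had 449 and 484 CPM with EPZ-6438, 376 and 365 CPM in the knockout with DMSO, and 387 and 378 CPM in Cal27. It rose by 0.34 ± 0.03 with EPZ-6438 (adjusted p = 3.7e-07), and PLXNA3, which overlaps LAGE3 in the annotation, rose by 0.65 ± 0.11. NRP1, co-receptor of SEMA3A and of VEGF, rose by 0.75 ± 0.12 in the labelled knockout and stayed there with EPZ-6438 (0.09 ± 0.11, not called). NRP2, co-receptor of SEMA3F, had 40.0 and 40.4 CPM with EPZ-6438, 31.0 and 29.6 CPM in the knockout with DMSO, and 43.0 and 38.8 CPM in Cal27, with log2 changes of -0.44 ± 0.07 and 0.41 ± 0.07.

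SLIT2 had the largest rise of the 50 genes in the labelled knockout. Slits are secreted repellents, and SLIT2 is silenced in several carcinomas. It had 11.1 CPM in each library with EPZ-6438, 21.1 and 18.1 CPM in the knockout with DMSO, and 2.34 and 1.86 CPM in Cal27. The log2 change was 3.21 ± 0.17 (adjusted p = 1.3e-10) in the labelled knockout and -0.81 ± 0.13 (adjusted p = 4.5e-05) with EPZ-6438, which left it above Cal27 by 2.39 ± 0.18. SLIT1 and SLIT3 were not tested. The receptor ROBO1 had 4.57 and 3.19 CPM with EPZ-6438, 6.60 and 5.94 CPM in the knockout with DMSO, and 4.03 and 2.60 CPM in Cal27, changing by 0.91 ± 0.24 and then by -0.71 ± 0.24. Receptor and ligand thus stood highest in the same group, the knockout with DMSO. The ROBO1 rise was lost without Cal27 replicate 2 (0.63) or knockout DMSO replicate 1 (0.84). Its fall was lost without EPZ-6438 replicate 2 (-0.45) or knockout DMSO replicate 1 (-0.63) and in DESeq2 (-0.70). ROBO3 did not pass the test in any comparison, and ROBO2 and ROBO4 were not tested.

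With EPZ-6438 3 of 4 tested netrins and netrin-Gs rose (NTN1, NTN4 and NTNG2), as did 2 of 2 tested UNC5 receptors, where 25.6% of all genes rose. In the labelled knockout 1 rose and 1 fell in each family. NTN1, the classic attractant of commissural axons (chr17:9003087-9244000), had 2.11 and 1.21 CPM with EPZ-6438, 0.777 and 0.652 CPM in the knockout with DMSO, and 4.03 and 3.27 CPM in Cal27. It fell by 2.35 in the labelled knockout (SE 0.37, adjusted p = 9.4e-05). Its rise with EPZ-6438, 1.18 ± 0.42 (adjusted p = 0.027), was lost without EPZ-6438 replicate 1 (0.76) or knockout DMSO replicate 1 (1.30) or 2 (1.06) and in DESeq2 (1.21). NTN4, a netrin of basement membranes, had 50.5 and 54.5 CPM with EPZ-6438, 30.5 and 29.4 CPM in the knockout with DMSO, and 26.7 and 28.7 CPM in Cal27, and rose by 0.82 ± 0.07 with EPZ-6438 (adjusted p = 5.3e-08). The lipid-anchored NTNG2 had 1.86 and 2.87 CPM with EPZ-6438, 0.544 and 0.580 CPM in the knockout with DMSO, and 0.952 and 0.669 CPM in Cal27, a rise of 2.08 ± 0.42 with EPZ-6438.

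NTNG1, its relative, had 3.64 and 2.43 CPM with EPZ-6438, 2.72 and 2.90 CPM in the knockout with DMSO, and 0.146 and 1.41 CPM in Cal27, where the libraries differed most. Its rise of 1.84 ± 0.51 in the labelled knockout was lost without Cal27 replicate 1 (0.98) or knockout DMSO replicate 2 (1.79) and in DESeq2 (1.85). UNC5B (chr10:71212570-71302864), which mediates repulsion by netrin, had 32.7 and 30.8 CPM with EPZ-6438, 11.3 and 11.7 CPM in the knockout with DMSO, and 31.0 and 28.6 CPM in Cal27. It fell by 1.38 in the labelled knockout (SE 0.10, adjusted p = 6.5e-09) and rose by 1.47 ± 0.10 with EPZ-6438 (adjusted p = 1.3e-09), which put it at a level not called different from Cal27 (0.09 ± 0.08). UNC5A had 28.9 and 27.4 CPM with EPZ-6438, 13.2 and 10.9 CPM in the knockout with DMSO, and 7.69 and 6.84 CPM in Cal27, so it rose in steps of 0.72 ± 0.14 and 1.23 ± 0.11 and no group overlapped another. In the annotation UNC5A overlaps HK3, and the strand setting of the counting is not given in the sources used here, so reads from the overlap cannot be assigned.

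**Figure D3:**
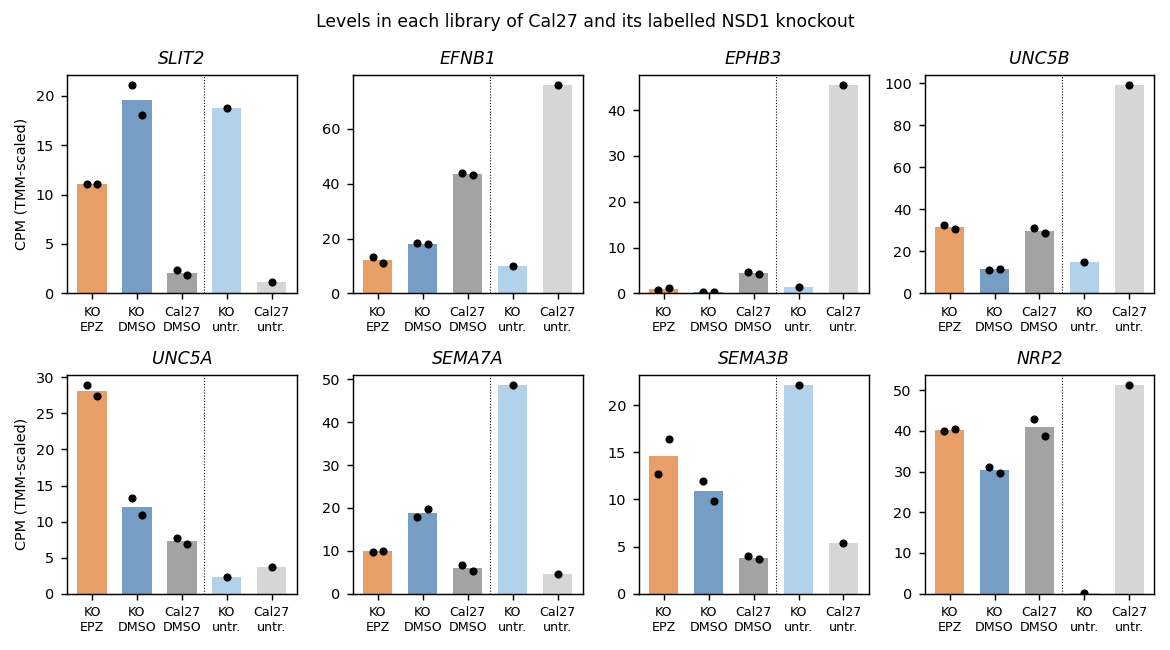
CPM (TMM-scaled, each axis from 0) of 8 axon guidance genes; bars are group means, points single libraries, and the dotted line parts the treated libraries (2 per group) from the untreated ones (untr., 1 per group). KO is the labelled knockout. SLIT2 is higher in every knockout library than in either Cal27 group, EFNB1 lower, and NRP2 is near 0 only in the untreated knockout.

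In the ephrin and Eph system, EFNB1 and EPHB3, a ligand and a receptor that bind each other and keep epithelial compartments apart, both fell in the labelled knockout. EFNB1, a transmembrane ephrin, had 13.4 and 10.9 CPM with EPZ-6438, 18.2 and 18.1 CPM in the knockout with DMSO, and 43.9 and 43.3 CPM in Cal27. It fell by 1.27 (SE 0.09, adjusted p = 7.1e-09) in the labelled knockout and by a further 0.58 (SE 0.11, adjusted p = 0.00027) with EPZ-6438, and no group overlapped another. EPHB3 had 0.846 and 1.15 CPM with EPZ-6438, 0.388 and 0.290 CPM in the knockout with DMSO, and 4.69 and 4.31 CPM in Cal27. It fell by 3.71 (SE 0.39, adjusted p = 1.1e-06), the largest fall called among the 50 genes. The rise with EPZ-6438, 1.57 ± 0.49, was lost without EPZ-6438 replicate 2 (1.31) or knockout DMSO replicate 2 (1.37) and in DESeq2 (1.58).

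Other B-type members changed with the inhibitor. EFNB3 had 2.71 and 2.36 CPM with EPZ-6438, 0.233 and 0.145 CPM in the knockout with DMSO, and 0.0732 and 0.0744 CPM in Cal27, a rise of 3.69 ± 0.51 with EPZ-6438 (adjusted p = 1.4e-05). Against the 2 counts of Cal27 the ratio of counts with EPZ-6438 was 34, with a 95% interval of 9.07 to 287. EPHB6, an Eph receptor without kinase activity, had 1.61 and 1.15 CPM with EPZ-6438, 0 and 0.362 CPM in the knockout with DMSO, and 0.293 and 0.818 CPM in Cal27. It rose by 2.81 ± 0.74 with EPZ-6438, a call lost without knockout DMSO replicate 1 (1.88). In the labelled knockout it was not called (-1.53 ± 0.88), except without knockout DMSO replicate 2, when that group had no count. EFNB2, the ligand of EPHB4 in vessels, had 12.9 and 16.8 CPM with EPZ-6438, 19.3 and 18.7 CPM in the knockout with DMSO, and 19.8 and 19.7 CPM in Cal27. Its change with EPZ-6438 of -0.33 ± 0.12 was lost without EPZ-6438 replicate 1 (-0.17), or knockout DMSO replicate 1 (-0.32) or 2 (-0.36), and in DESeq2 (-0.34).

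EPHA2 and EPHB4 had the highest mean counts of their families and changed by no more than 0.20 on the log2 scale. EPHA2, the main Eph receptor of keratinocytes, had 204 and 221 CPM with EPZ-6438, 240 CPM in each knockout library with DMSO, and 210 and 207 CPM in Cal27 (log2 0.20 ± 0.04 and -0.17 ± 0.04). Its ligand EFNA1 had 85.8 and 90.8 CPM with EPZ-6438, 70.4 and 71.8 CPM in the knockout with DMSO, and 73.6 and 78.0 CPM in Cal27, and rose by 0.32 ± 0.05 with EPZ-6438. EFNA5 rose in steps of 0.71 ± 0.11 and 0.57 ± 0.09, and EFNA3 by 0.74 ± 0.18 with EPZ-6438. EPHB4, which overlaps SLC12A9 in the annotation, had 73.3 and 75.5 CPM with EPZ-6438, 81.8 and 86.3 CPM in the knockout with DMSO, and 76.8 and 75.2 CPM in Cal27. Its changes of 0.14 ± 0.05 and -0.17 ± 0.05 did not hold without knockout DMSO replicate 2 (0.10 and -0.13). The first was also lost without Cal27 replicate 1 (0.16) or 2 (0.13) and in DESeq2 (0.15). EPHB2 rose in steps of 0.31 ± 0.06 and 0.44 ± 0.06. EPHA10 had 2.03 and 2.30 CPM with EPZ-6438, 0.699 and 0.435 CPM in the knockout with DMSO, and 0.586 and 0.967 CPM in Cal27, and rose by 1.94 ± 0.43 with EPZ-6438. EFNA3 and EFNA4 share a read-through transcript in the annotation, so their counts are uncertain.

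The starts of 3 of these genes, chosen by their change in the labelled knockout, are shown. They are SLIT2, with the largest rise there, and EFNB1 and EPHB3, the ligand and receptor that fell. Each stretch runs from 250 bases before to 50 after the annotated start on the plus strand (RefSeq, GRCh38.p14), 5′ to 3′, with CG dinucleotides in capitals. SLIT2 lies at chr4:20251655-20251954, EFNB1 at chrX:68828771-68829070 and EPHB3 at chr3:184561535-184561834.
SLIT2: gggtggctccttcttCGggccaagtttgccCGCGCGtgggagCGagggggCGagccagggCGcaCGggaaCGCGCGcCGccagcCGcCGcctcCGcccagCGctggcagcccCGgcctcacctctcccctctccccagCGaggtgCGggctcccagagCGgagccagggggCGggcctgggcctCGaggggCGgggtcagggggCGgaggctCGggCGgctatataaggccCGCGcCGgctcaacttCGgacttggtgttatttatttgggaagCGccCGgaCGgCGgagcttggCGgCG
EFNB1: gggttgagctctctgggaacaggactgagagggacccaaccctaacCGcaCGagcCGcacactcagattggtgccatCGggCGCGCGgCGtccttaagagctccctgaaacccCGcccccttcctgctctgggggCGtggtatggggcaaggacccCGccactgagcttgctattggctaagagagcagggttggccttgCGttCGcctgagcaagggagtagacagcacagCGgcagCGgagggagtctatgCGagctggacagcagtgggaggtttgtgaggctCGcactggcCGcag
EPHB3: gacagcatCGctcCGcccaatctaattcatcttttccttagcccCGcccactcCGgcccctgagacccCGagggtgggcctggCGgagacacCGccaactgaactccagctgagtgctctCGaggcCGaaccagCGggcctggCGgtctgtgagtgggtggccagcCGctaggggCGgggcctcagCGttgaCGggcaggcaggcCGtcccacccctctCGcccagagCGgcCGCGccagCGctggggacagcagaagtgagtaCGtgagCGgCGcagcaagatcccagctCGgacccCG
They hold 36, 18 and 26 CG dinucleotides in the order printed, and the median over 35116 such windows was 14. Promoter windows were found for 59 of the 70 genes, whose median, taking each gene's own median over its starts, was 23, with a range of 3 to 54. Windows of the 17 genes with one that rose in the labelled knockout had a median of 24, those of the 8 that fell had a median of 29, and those of the 16 not called had a median of 23.8. The sequence GGAATG, read on both strands, was in 8 of the 59 genes (13.6%), against 16.7% of 27305 genes with a window, and TGANTCA, which is its own reverse complement, was in 1 of the 59 (1.69%), against 9.37% of those genes. None of the 3 windows printed holds either. These counts describe the letters only.

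The untreated libraries gave a second look at the labelled knockout, with 1 library on each side and therefore no test. Of 43 axon guidance genes with at least 50 counts in either library, 8 were higher by 2-fold or more in the untreated labelled knockout than in untreated Cal27 and 9 were lower. Over all genes the shares were 5.10% and 7.47%. The libraries are separate from the DMSO set, so the values can be set beside it. Of the 13 genes called at 2-fold or more in the DMSO set and measured here, 13 had the same sign, against 90.9% of all such genes. Of the 29 called at any size, 25 had the same sign (86.2%), against 77.1% of all such genes. Over the 43 genes Pearson's r between the log2 values was 0.77 (0.61 over 11893 genes), as a description across genes of the same libraries.

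SLIT2 had 18.8 CPM (95% Poisson interval 17.0 to 20.7) in the untreated labelled knockout and 1.20 CPM (0.775 to 1.77) in untreated Cal27. EPHB3 had 1.42 CPM (0.965 to 2.02) in the knockout against 45.5 CPM (42.7 to 48.5) in Cal27, and EFNB1 had 9.85 CPM (8.57 to 11.3) against 76.0 CPM (72.3 to 79.8). SEMA3D, SEMA3B and SEMA3E were also higher, at 9.94, 22.1 and 6.32 CPM in the untreated labelled knockout (log2 differences 2.69, 2.02 and 1.92). These genes therefore stood on the same side of Cal27 in both sets.

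Other genes stood differently in the sets, a difference that was not tested because the untreated groups are single libraries. NRP2 had 4 counts (0.183 CPM) in the untreated labelled knockout against 1070 counts (51.2 CPM) in untreated Cal27, whereas the knockout with DMSO had 31.0 and 29.6 CPM. UNC5A was higher in the labelled knockout with DMSO but had 2.29 CPM in the untreated labelled knockout and 3.64 CPM in untreated Cal27. EFNA1 had 144 CPM in the untreated labelled knockout and 69.9 CPM in untreated Cal27, while it was not called in the DMSO set (-0.10 ± 0.05). SEMA7A had 48.6 CPM in the untreated labelled knockout and 4.60 CPM in untreated Cal27, and UNC5B had 14.9 CPM in the knockout and 99.2 CPM in Cal27. With the untreated pair in the fit, 7 calls of named genes in the labelled knockout were lost: SEMA4B, SEMA5B, PLXND1, NRP2, NTNG1, UNC5A and EPHB4 (log2 -0.22, -1.69, -1.25, -1.64, 1.66, 0.34 and 0.05).

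**Figure D4:**
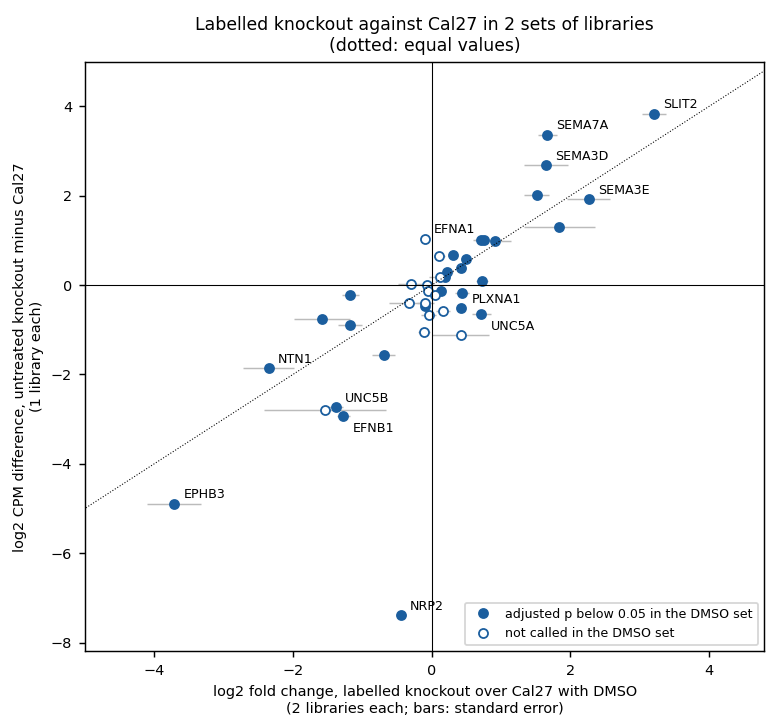
Log2 fold change of the labelled knockout over Cal27 with DMSO (horizontal axis, bars ± SE; filled where adjusted p is below 0.05) against the log2 CPM difference between the untreated labelled knockout and untreated Cal27 (vertical axis, 1 library each) for 43 axon guidance genes. SLIT2 and EPHB3 lie at opposite corners near the dotted line of equal values, and NRP2 lies far below it at -7.39.

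Parental Cal27 itself differed between the sets. Of 39 axon guidance genes with enough counts, 12 were at least 2-fold lower in Cal27 with DMSO than in untreated Cal27 and 0 were higher, while 5.36% of all genes were lower and 2.09% higher by as much. The median log2 difference was -0.49, against -0.01 over all genes. EPHB3 had 4.69 and 4.31 CPM in Cal27 with DMSO, whereas the untreated library had 45.5 CPM (log2 -3.31). EPHB6 differed by -2.79, and EFNB2, NTN1 and UNC5B each by -1.73. The squamous markers stood at 8192 and 8093 CPM in sum in Cal27 with DMSO and at 24281 CPM in untreated Cal27. DMSO and the set of libraries cannot be told apart, and no p-value is given because untreated Cal27 is 1 library.

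The other lines spread further. In SKN3 19 of 46 measured axon guidance genes were at least 2-fold higher than in untreated Cal27 and 11 lower, with 20.0% and 18.5% over all genes. In BICR78 15 of 44 were higher and 12 lower, with 15.2% and 9.68% over all genes. Ligands were higher by 2-fold or more in 12 of 25 cases in SKN3 and 11 of 24 in BICR78, receptors in 7 of 21 and 4 of 20. Ligands were lower by as much in 5 of 25 and 4 of 24 cases, receptors in 6 of 21 and 8 of 20. These are single libraries with no replicate check. The 9 squamous markers summed to 6606 CPM in SKN3 and 12980 CPM in BICR78, against 24281 CPM in untreated Cal27, and their part was not tested.

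SLIT2 reached 133 CPM (95% Poisson interval 127 to 138) in SKN3 and 15.4 CPM (13.7 to 17.2) in BICR78, against 1.20 CPM in untreated Cal27, log2 differences of 6.65 and 3.55. SEMA3D had 16.7 CPM in SKN3 and 54.1 CPM in BICR78, against 1.44 CPM in Cal27. PLXND1 had 34.8 CPM in SKN3 and 68.8 CPM in BICR78, against 3.88 CPM in Cal27. All 3 were thus higher in both lines than in Cal27. SEMA3B had 16.2 CPM in SKN3 and 51.0 CPM in BICR78, against 5.36 CPM in Cal27, and SEMA3C had 114 and 250 CPM in those lines, against 30.9 CPM in Cal27. NTN1 and EPHA10 were high in SKN3 but not BICR78: NTN1 had 198 CPM in SKN3 and 9.23 CPM in BICR78, against 12.3 CPM in Cal27, and EPHA10 had 12.9 and 0.515 CPM, against 0.766 CPM in Cal27. EPHA4 had 26.9 CPM in SKN3 and 6.19 CPM in BICR78, against 1.68 CPM in Cal27. It was near 0 elsewhere, with 2 counts in the untreated labelled knockout and at most 0.586 CPM in a treated library.

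SEMA3E parted the lines, with no count in SKN3 and 15.1 CPM in BICR78, against 1.58 CPM in Cal27. SKN3 had no count of EPHB6 either, against 88 counts in Cal27, which made it at least 26-fold lower at a floor of 3 counts. EPHB3 had 2.06 CPM in SKN3 and 16.1 CPM in BICR78, against 45.5 CPM in Cal27. UNC5A had 3 counts in BICR78 and 76 in Cal27, a ratio of 0.0425 with a 95% interval of 0.00857 to 0.129. SEMA4C and SEMA6B were lower in both lines, with log2 differences of -2.43 and -2.95 in SKN3 and -2.36 and -2.34 in BICR78. ROBO1 had 16.8 CPM in SKN3 and 0.979 CPM in BICR78, against 5.41 CPM in Cal27. SLIT2 and its receptor ROBO1 were thus both above Cal27 in SKN3, and only SLIT2 was in BICR78.

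The other genes named for their change or level are given here over the 4 untreated libraries. SEMA3F had 17.4 CPM in the labelled knockout, 42.8 CPM in SKN3 and 56.3 CPM in BICR78, against 32.6 CPM in Cal27. NTN4 had 64.0 CPM in the labelled knockout, 108 CPM in SKN3 and 179 CPM in BICR78, against 40.6 CPM in Cal27. SEMA3F was above Cal27 in both other lines and below it in the knockout. SEMA4B had 220 CPM in the labelled knockout, 112 CPM in SKN3 and 148 CPM in BICR78, against 304 CPM in Cal27. PLXNB2 had 541 CPM in the labelled knockout, 419 CPM in SKN3 and 257 CPM in BICR78, against 598 CPM in Cal27. SEMA4B and PLXNB2 were thus lower than Cal27 in all 3 libraries, and NTN4 was higher in all 3. SEMA6B had 14.2 CPM in the labelled knockout, 2.06 CPM in SKN3 and 3.20 CPM in BICR78, against 16.7 CPM in Cal27. SEMA7A had 8.87 CPM in SKN3 and 14.9 CPM in BICR78, and NRP2 had 27.8 CPM in SKN3 and 28.9 CPM in BICR78, so its near absence was seen in the untreated labelled knockout alone.

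EFNA1 had 47.0 CPM in SKN3 and 89.0 CPM in BICR78, and its receptor EPHA2 had 262 CPM in the labelled knockout, 46.9 CPM in SKN3 and 106 CPM in BICR78, against 232 CPM in Cal27. EFNB1 had 26.6 CPM in SKN3 and 45.3 CPM in BICR78, below the 76.0 CPM of Cal27 as in the knockout. EFNB2 had 65.7 CPM in the labelled knockout, 148 CPM in SKN3 and 63.4 CPM in BICR78, against 65.5 CPM in Cal27. EPHB4 had 92.1 CPM in the labelled knockout, 87.6 CPM in SKN3 and 153 CPM in BICR78, against 101 CPM in Cal27. SKN3 thus stood high for the ligand and BICR78 for the receptor. UNC5B had 14.6 CPM in SKN3 and 151 CPM in BICR78, against 99.2 CPM in Cal27. In the untreated labelled knockout SEMA3C had 46.2 CPM, ROBO1 10.8 CPM, NTN1 3.30 CPM and PLXND1 2.24 CPM, so SEMA3C and ROBO1 were above untreated Cal27 and NTN1 and PLXND1 below it.

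The remaining named genes rested on few counts in these libraries. SEMA5B had 9 counts in the labelled knockout, 27 in SKN3 and 52 in BICR78, against 20 in Cal27. SEMA6A had 0 counts in the labelled knockout, 10 in SKN3 and 3 in BICR78, against 1 in Cal27. Of the untreated counts of both, the highest was in SKN3 or BICR78. NTNG1 had 69 counts in the labelled knockout, 2 in SKN3 and 4 in BICR78, against 25 in Cal27. NTNG2 had 29 counts in the labelled knockout, 4 in SKN3 and 4 in BICR78, against 34 in Cal27. The lipid-anchored pair was thus lower in both other lines than in Cal27. EFNB3 had 1 count in the labelled knockout, 69 in SKN3 and 30 in BICR78, against 6 in Cal27. EFNB3 was higher in both lines. EPHA10 had 31 counts and EPHB6 11 in the labelled knockout, UNC5A had 18 in SKN3, and EPHB6 had 32 in BICR78.

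**Figure D5:**
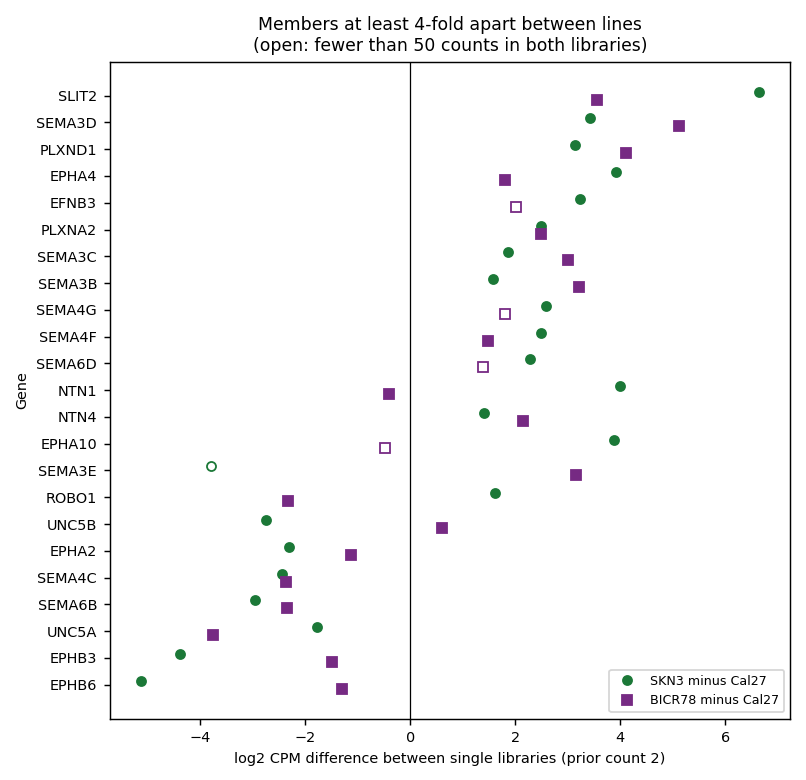
Log2 CPM difference (prior count 2) of SKN3 (circles) and BICR78 (squares) from untreated Cal27, 1 library each, for the 23 axon guidance genes at least 4-fold apart in either line; open symbols have fewer than 50 counts in both libraries. SLIT2 lies at 6.65 and 3.55, while EPHB6 in SKN3 had no count, so its position depends on the prior count.

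Of the partners of these pathways, a list of 89 co-receptors and cytoplasmic effectors, 88 were in the table and 71 were tested. In the labelled knockout 19 rose and 20 fell, and with EPZ-6438 30 rose and 19 fell, with medians of -0.00 and 0.13 on the log2 scale. These are 26.8% and 28.2%, and 42.3% and 26.8%, of those tested, against 16.4% and 19.5%, and 25.6% and 23.9%, of all genes. NEO1, the neogenin receptor of netrins, rose by 2.80 ± 0.09 with EPZ-6438 (adjusted p = 1.3e-13), to 64.3 ± 4.1 CPM, against 9.20 ± 0.82 CPM in the knockout with DMSO and 7.53 ± 0.29 CPM in Cal27 (SD, n = 2 each). ITGA1, a chain of the integrin that binds SEMA7A, rose by 4.35 ± 0.11 with EPZ-6438, to 64.4 ± 1.2 CPM, against 3.16 ± 0.47 CPM in the knockout with DMSO and 6.68 ± 0.19 CPM in Cal27. FLRT3, a membrane protein that binds UNC5 receptors, fell by 2.66 in the labelled knockout (SE 0.31) and rose by 2.11 ± 0.33 with EPZ-6438. GPC1, a heparan sulfate proteoglycan that binds SLIT2, fell by 0.72 (SE 0.04) in the labelled knockout and by 0.24 (SE 0.04) with EPZ-6438. The actin regulator EVL fell by 2.65 (SE 0.20) in the labelled knockout, and CFL1, which severs actin filaments, fell by 0.18 (SE 0.02). EPS8, also an actin regulator, rose by 0.88 ± 0.06, the kinases ABL1 and MET rose by 0.42 ± 0.05 and 0.22 ± 0.03, and RASA1 rose by 0.40 ± 0.06. With EPZ-6438, RND1 and DPYSL2, which act below plexins, rose by 3.07 ± 0.31 and 2.84 ± 0.29 at equal adjusted p, and SDCBP, a scaffold that binds ephrin-B tails, rose by 0.37 ± 0.03. PDLIM7, RHOD, CAP2 and the kinase PAK2 fell by 0.87, 0.66, 0.85 and 0.34 (SE 0.06, 0.05, 0.07 and 0.04). The netrin receptor DCC was at most 0.423 CPM in any library and was not tested.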

How the data were processed

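Per the labels' protocols, ribosomal RNA was removed before library preparation. Raw read counts per gene were used as the authors deposited them. Per the submitters' processing notes the build was hg38 and the tools included HISAT2 2.1.0 and featureCounts 1.6.1; the annotation and strand setting are not given in the sources used. The 7 CUT&Tag samples were not analysed here.

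Samples were grouped by title. The 6 treated libraries entered 1 fit in edgeR 4.0.16 under R 4.3.3: default low-count filter (13241 genes), TMM scaling, quasi-likelihood F test, Benjamini-Hochberg adjustment over all 13241 genes, calls at adjusted p below 0.05. SE is the size of the log2 change over the square root of F. "Rose" and "fell" mean called. The test was first run on simulated counts with 1 spread for all genes, equal to the common estimate of 2.6% from these data. That run checked the code and gives no error rate for genes of low count. Single untreated libraries were compared as log2 CPM (TMM over 10 libraries, prior count 2, at least 50 counts in either), without a test. Intervals on CPM are exact 95% Poisson intervals. Those on ratios of counts are exact 95% binomial intervals, on counts summed over the libraries of each group. Like floors of 3 counts, both cover counting error only. Alternatives were DESeq2 1.42.0, other scalings and filters, a replicate block, the untreated pair added, and each library left out.

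The genes, the partner and marker lists and the rules were chosen with earlier results of these data known. Values by library are given for genes called at 2-fold or more in the knockout or inhibitor comparison, the gene of each family with the highest mean CPM, and genes with at least 100 counts and a log2 difference of 3 between SKN3 or BICR78 and Cal27, 31 in all; other genes are given by counts or a called change, and up to 4 partners each way in each comparison by lowest adjusted p, ties kept. SEMA4C and DCC were named after their values were seen.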

Additional observations from a re-analysis of the deposited data

Results flagged for a closer look

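In 7 genes the labelled knockout lay on opposite sides of Cal27 in the untreated pair and in the DMSO set, with both libraries of each DMSO group on the same side. EFNB2, with a log2 difference of 0.00 in the untreated pair, is not counted among them. Of the 43 genes measured in both sets, 33 had the same sign (76.7%), against 64.6% of 11893 genes. The untreated groups have 1 library each, so the difference between the sets was not tested. In the untreated pair 3 of the 7 lay near 0. EFNA3 differed by 0.03, EPHB4 by -0.13 and SEMA4A by -0.18, or by 0.13, -0.03 and -0.08 with library size alone. The log2 difference in the untreated pair less that in the DMSO set was 1.13 for EFNA1, 0.32 for EFNA3, -0.27 for EPHB4, -0.96 for PLXNA1, -0.62 for SEMA4A, -1.54 for SEMA6C and -1.36 for UNC5A. EPHB4, PLXNA1, SEMA4A and UNC5A had risen in the DMSO set, and EFNA1, EFNA3 and SEMA6C were not called there. PLXNA1 had 154 CPM in the untreated labelled knockout, against 221 CPM in untreated Cal27.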

How the results depend on the processing

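In the labelled knockout against Cal27 with DMSO, the counts of axon guidance genes ran from 14 to 19 higher and 7 to 11 lower over the alternatives, and from 16 to 19 and 8 to 11 with each library left out. With EPZ-6438 they ran from 19 to 26 higher and 6 to 10 lower, and from 22 to 26 and 6 to 9 with each library left out. Against Cal27 they ran from 22 to 29 and 4 to 7, and from 23 to 29 and 4 to 7. DESeq2 called 6 lower with EPZ-6438 and 4 lower against Cal27, and 15 calls of named genes did not hold there either; the cause was not tested. Adding the untreated pair gave 1318 genes higher, 1595 lower and 7 axon guidance genes lower, and turned 3 uncalled values: EFNA1 0.29, EFNB3 -0.32 and EPHA10 0.12. Library size alone gave 2978 higher and 2088 lower in the knockout comparison (2169 and 2580 with TMM) and 4016 and 2815 for EPZ-6438 against Cal27 (3456 and 3428 with TMM). Uncalled values near 0 also turned. With EPZ-6438 these were SEMA3E (0.00 under the stricter filter, -0.22 to 0.13 with a library left out, 0.07 among them) and NTNG1 (-0.21 to 0.38). Against Cal27 they were NRP2 (0.03 with library size alone, -0.10 to 0.05 with a library left out), ROBO1 (-0.08 to 0.55, -0.05 among them), EPHA2 (-0.03 to 0.08) and EPHB4 (0.02). A replicate block gave 2054 genes higher and 2458 lower in the knockout comparison, and 26 and 9 axon guidance genes with EPZ-6438. It lost only SEMA3D among named calls. Replicate deviations over all tested genes correlated at 0.014, 0.00347 and -0.0443 between groups. Such deviations hold counting error, so these values cannot tell whether equal replicate numbers share a culture or day. Genes under 1 CPM rest on few counts.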
